A study of Mus musculus with 10 samples.

Results

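The genes described here were those restricted to inner hair cells (IHCs) among the 5 cochlear cell types of this bulk RNA-seq series. A gene was included when it reached at least 10 CPM (counts scaled to a library total of 1000000 gene counts) in both IHC libraries and when the lower of the 2 IHC values was at least 5 times the highest value in the other 8 libraries. The rule found 58 genes among the 34590 genes listed. They were 0.87% of the 6668 genes with at least 10 CPM in both IHC libraries. The genes were thus chosen by their CPM in all 10 libraries, and the difference between IHCs and the other cell types is given as a description, with no test.

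IHCs are the primary sensory cells of the mammalian cochlea. They convert sound-evoked deflection of the hair bundle into graded release of glutamate from ribbon synapses onto spiral ganglion neurons, whereas outer hair cells (OHCs) amplify sound through the motor protein prestin. Vesicular glutamate transporter 3, encoded by *Slc17a8*, fills the synaptic vesicles of IHCs, and the transcription factor Tbx2 is known as a determinant of IHC over OHC identity. Calretinin, encoded by *Calb2*, is a calcium buffer long used as an IHC marker.

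All cells were handpicked by fluorescence after enzymatic dissociation of mouse cochleae, and their RNA was amplified before library preparation. IHCs came from Pval-Cre+ mice at days 74 and 75 that carried tdTomato behind a loxP-flanked stop in Rosa26, under the CAG promoter, in which parvalbumin-driven Cre also labels OHCs, although weakly per the study's methods. Supporting cells (SCs, Deiters' and pillar cells) came from Fgfr3iCreER+ mice with a tdTomato allele of the same genotype label at days 26 and 27, and converted hair cells (cHCs) from such mice at day 33 that also carried Atoh1-HA and the hair cell reporter alpha9 AChR-EGFP, with both groups given tamoxifen. OHCs were labelled at day 7 as OHCs (P7) and at days 21 and 22 as OHCs (P22), both under the prestin-YFP genotype in the sample labels, while the study's own summary of mouse lines lists a tamoxifen-induced prestin Cre driver with tdTomato for OHCs (P7). There were 2 libraries of each cell type, which the study describes as biological replicates and whose ages differ for SCs, OHCs (P22) and IHCs. The labels do not say how many animals gave a library. The titles of the IHC libraries name the tdTomato allele Ai9, whereas the study's methods name Ai14. The IHCs were the oldest cells and the only ones from the Pval-Cre line. The effects of cell type, age and mouse line on a gene restricted to IHCs therefore cannot be told apart.

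The gene counts of a library summed to 15016129 at the least and 40518766 at the most, so that 1 count was worth 0.0247 to 0.0666 CPM. The 2 libraries of each cell type are called A and B here, in the order of the library numbers in their labels, and values are given in that order. The numbers of the IHC and OHC (P22) libraries belong to 1 series and those of the other 6 libraries to another. For 4 of the 10 samples, the deposited file belonged to a different sample by its content and was assigned accordingly. Neither the IHC nor the OHC (P22) files were among them. The rule takes the highest of the other 8 libraries whatever their labels, so either assignment gives the same 58 genes by construction.

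Sequence 250 bases before the start of the gene was held in RefSeq promoter tables (GRCm38.p6) for 44 of the 58 genes, as 57 promoters. Those of 5 genes are shown as examples: 3 genes of glutamate release, calcium handling and transport, and 2 genes with ratios above 100. They were placed on mm9 by exact match, run 5′ to 3′ on the strand of the gene up to its annotated start, and E-boxes (CANNTG, the core bound by basic helix-loop-helix factors such as Atoh1) are in capitals.
Slc17a8: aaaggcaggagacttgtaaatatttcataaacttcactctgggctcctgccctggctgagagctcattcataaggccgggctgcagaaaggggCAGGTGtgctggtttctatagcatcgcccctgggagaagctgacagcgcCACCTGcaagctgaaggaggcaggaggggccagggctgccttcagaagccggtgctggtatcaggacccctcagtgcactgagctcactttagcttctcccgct
Atp2a3: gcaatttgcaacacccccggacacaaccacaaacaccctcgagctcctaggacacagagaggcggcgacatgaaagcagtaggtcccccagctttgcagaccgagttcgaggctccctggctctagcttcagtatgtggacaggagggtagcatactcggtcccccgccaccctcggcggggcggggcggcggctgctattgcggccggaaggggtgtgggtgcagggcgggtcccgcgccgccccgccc
Slc7a14: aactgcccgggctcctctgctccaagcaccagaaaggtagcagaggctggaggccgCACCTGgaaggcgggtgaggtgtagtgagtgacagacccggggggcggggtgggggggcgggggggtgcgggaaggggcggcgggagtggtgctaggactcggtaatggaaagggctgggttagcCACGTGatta
Rps6ka2: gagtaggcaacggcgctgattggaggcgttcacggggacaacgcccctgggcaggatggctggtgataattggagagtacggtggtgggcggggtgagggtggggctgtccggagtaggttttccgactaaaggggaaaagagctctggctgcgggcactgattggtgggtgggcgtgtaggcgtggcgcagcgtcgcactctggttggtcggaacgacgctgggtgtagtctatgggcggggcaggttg
Fam65c: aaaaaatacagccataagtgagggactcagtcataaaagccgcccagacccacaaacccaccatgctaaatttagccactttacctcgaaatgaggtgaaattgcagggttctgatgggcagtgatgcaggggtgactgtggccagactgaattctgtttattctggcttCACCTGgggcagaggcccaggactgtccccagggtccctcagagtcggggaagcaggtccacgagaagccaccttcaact

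The *Slc17a8* sequence lay at chr10:89083999-89084244 on the minus strand and held 2 E-boxes. The *Atp2a3* sequence lay at chr11:72774421-72774670 on the plus strand and held none. The *Slc7a14* sequence lay at chr3:31209301-31209491 on the minus strand and held 2 E-boxes. The sequences of *Rps6ka2*, at chr17:7374214-7374463 on the plus strand, and *Fam65c*, at chr2:167836119-167836368 on the minus strand, held 0 and 1. The absence of a match says only that these letters are not in this window.

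Over the 57 promoters the E-box was found in 59.6%, against 66.2% of all 32851 promoters of the same length, and the TATA box (TATAAA, both strands) in 12.3% against 12.4%. The GC box (GGGCGG, both strands) was found in 45.6% against 32.7%. Median GC content was 57.6% in the 57 promoters and 52.4% in all promoters, and the median observed to expected CpG ratio was 0.549 against 0.374. GC content and the share with a GC box were thus both higher in the set than in all promoters, and neither difference was tested. The set held only genes with at least 10 CPM in both IHC libraries, whereas the 32851 promoters were not limited to such genes. A trait of genes read at that level and a trait of the set therefore cannot be told apart.

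The 58 genes took 1.74% and 1.68% of the counted reads in the IHC libraries and between 0.0141% and 0.0867% in the other libraries. Their mean level in IHCs ranged from 12.8 to 2004 CPM with a median of 83.7 CPM. Of their 464 values in the other 8 libraries, 61.4% were under 1 CPM and 135 were 0. The ratio of the lower IHC library to the highest other library had a median of 11.4. It was between 5 and 10 for 23 genes, between 10 and 100 for 28 and above 100 for 6, while *Alk* had no read outside IHCs. Of the 6, *Ednrb* and *Rerg* had only 2 and 1 counts in the highest other library, so that their ratios of 309 and 217 had 95% counting intervals of 85.1 to 2553 and 38.6 to 8591. The other library with the highest level was of OHCs (P22) for 20 genes, of cHCs and of OHCs (P7) for 15 each and of SCs for 8.

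**Figure D1:**
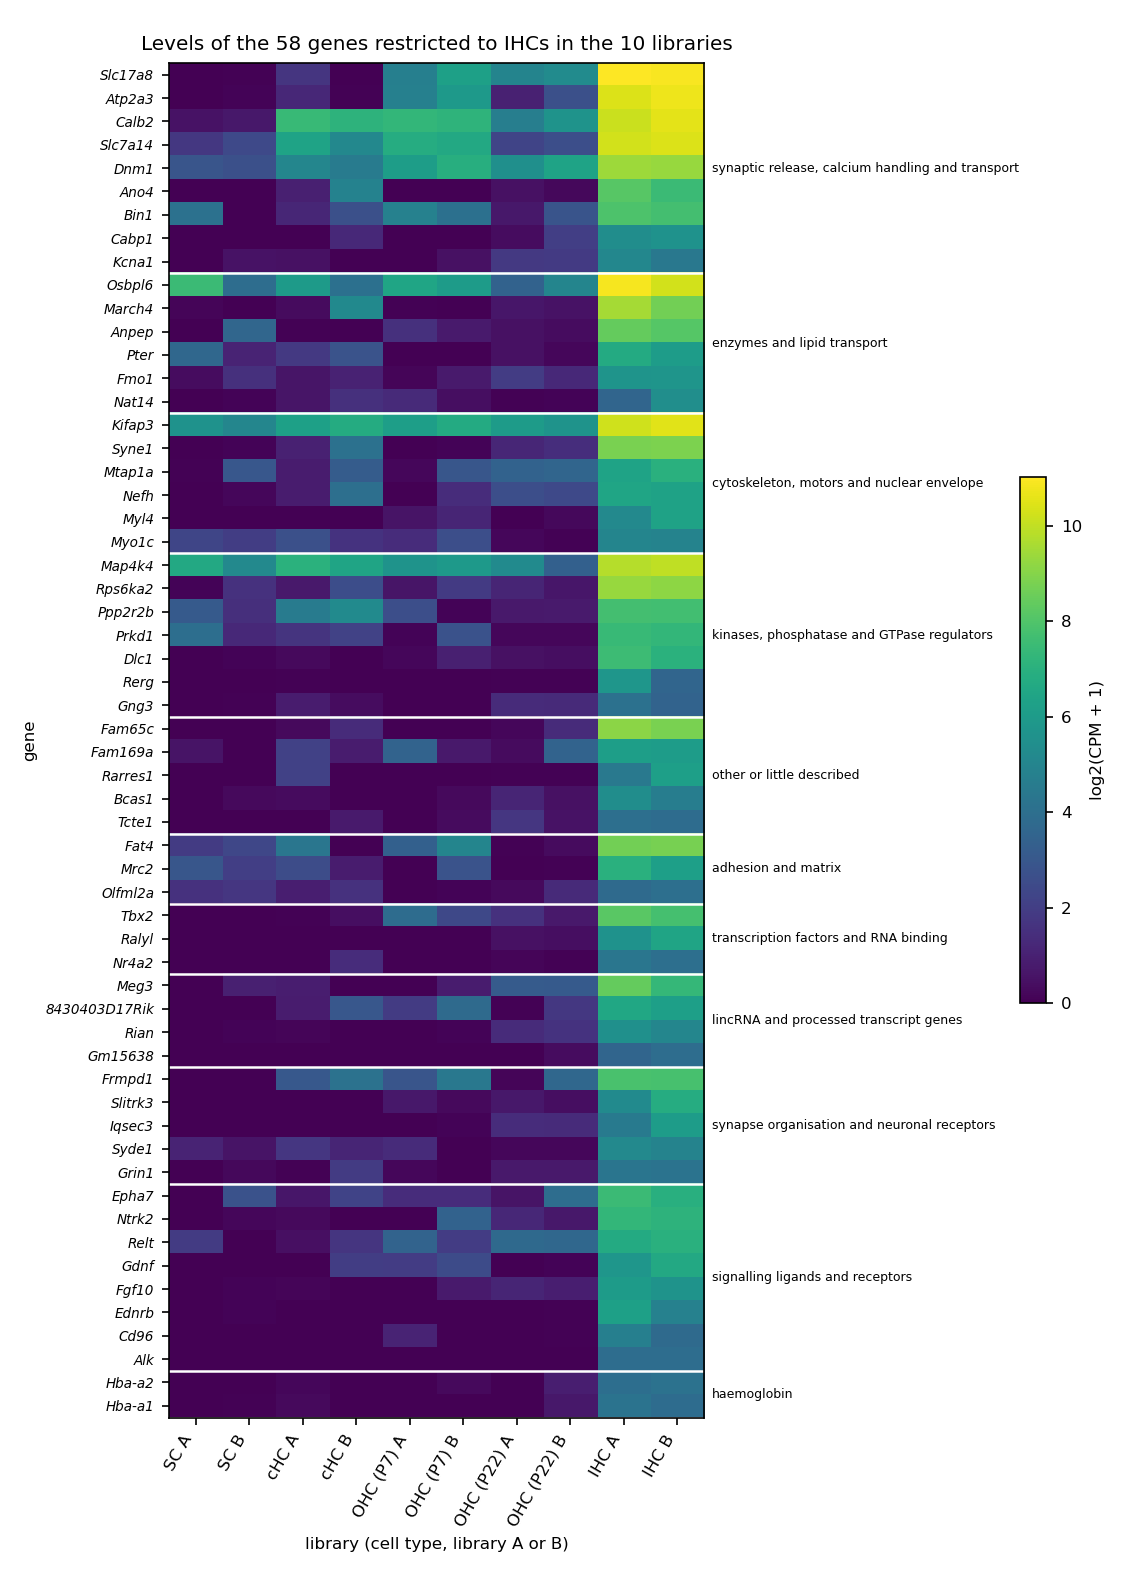
Level of each of the 58 genes (rows, ordered by role and by mean IHC level) in each of the 10 libraries (columns, cell type and library A or B), as log2(CPM + 1) on a colour scale from 0. Within each row the 2 IHC columns are brighter than the other 8, as the rule requires, and 61.4% of the values in the other 8 columns are under 1 CPM.

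**Figure D2:**
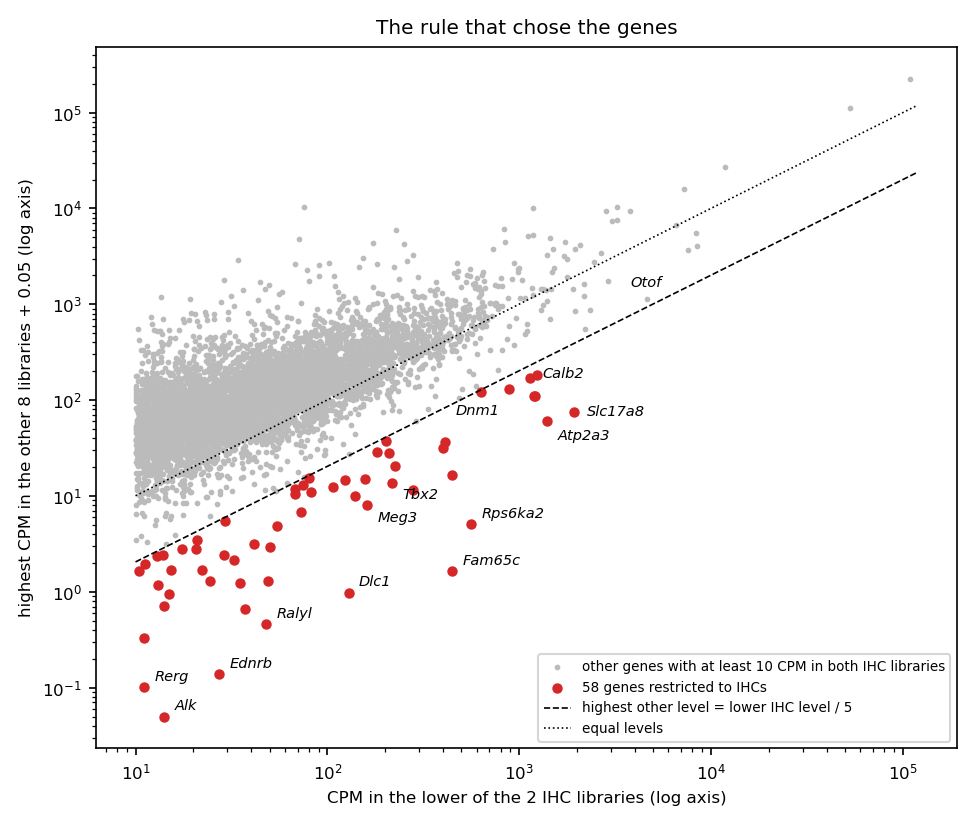
Lower of the 2 IHC levels (x axis, CPM, log scale) against the highest level in the other 8 libraries plus 0.05 (y axis, CPM, log scale) for the 6668 genes with at least 10 CPM in both IHC libraries. The 58 genes, in red, lie below the dashed line of a 5-fold ratio, and *Alk*, at the bottom, had no read outside IHCs.

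The rule was also applied with each IHC library alone. With library A it would have chosen 155 genes, of which 58 (37.4%) met it in library B and 43 (27.7%) were under 1 CPM there. With library B it would have chosen 171 genes, of which 58 (33.9%) met it in library A. Most genes chosen from 1 library therefore did not meet the rule in the other. Both choices used the same 8 other libraries, so these shares describe the rule and were not tested.

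The genes nearest the limit were *Nefh*, with a ratio of 5.20, and *Dnm1*, with 5.21, followed by *Ppp2r2b* (5.38), *Myo1c* (5.45) and *Olfml2a* (5.62). Just outside it were *8030462N17Rik* (4.83), *Lrrn1* (4.79), *Cys1* (4.76), *Plcxd2* (4.75) and *Arl5a* (4.63). The limit cut through a continuous range of ratios. In all, 652 genes, or 9.78% of those with at least 10 CPM in both IHC libraries, were higher in both IHC libraries than in all others.

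The libraries were compared with marker lists. Of 9 IHC markers, 7 had at least 10 CPM in both IHC libraries and 5 were among the 58 genes (*Slc17a8*, *Tbx2*, *Atp2a3*, *Slc7a14* and *Calb2*). Over all genes at that level, 0.87% met the rule. The list was chosen with earlier results of these data known, so the overlap is no independent check. *Otof*, which encodes the calcium sensor otoferlin of IHC exocytosis, reached 5448 and 4628 CPM in IHCs and 191 to 1124 CPM in the other hair cell libraries, and missed the rule with a ratio of 4.12. *Dnajc5b*, at 316 and 220.1 CPM in IHCs, missed it through 1 OHC (P22) library at 88.4 CPM. *Fgf8* and *Rprm* are also on the list of IHC markers, but *Fgf8* was at 0 in both IHC libraries and *Rprm* at 0 and 0.302 CPM. The reason was not tested. The prestin gene *Slc26a5* was at 1.43 and 0.943 CPM in IHCs and between 1052 and 3055 CPM in OHCs, while the OHC marker *Ocm*, encoding oncomodulin, was at 260.3 and 75.3 CPM in IHCs.

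Markers of other cells were also read in the IHC libraries. The 8 supporting cell markers summed to 951 and 791 CPM in IHCs, against 9.55 and 5.43 CPM in OHCs (P22), 293 and 88.8 CPM in OHCs (P7), 1290 and 978 CPM in cHCs and 1824 and 1186 CPM in SCs, with no member of the list at 0 in both IHC libraries. *Gjb2*, encoding connexin 26, was at 665 and 514 CPM in IHCs and made up most of these IHC sums. It was higher in both IHC libraries than in all others, those of SCs included. Of the 8 supporting cell markers, 5 had at least 10 CPM in both IHC libraries. The 5 markers of inner phalangeal and border cells, which surround the IHC, summed to 375 and 358 CPM in IHCs and 514 and 681 CPM in SCs. The sums were 25.6 and 20.8 CPM in OHCs (P22), 25.5 and 12.5 CPM in OHCs (P7) and 271 and 55.1 CPM in cHCs. The 7 Schwann cell markers summed to 126 and 268 CPM in IHCs and 159 and 216 CPM in SCs. Their sums were 48.8 and 3.74 CPM in OHCs (P22), 10.8 and 12.5 CPM in OHCs (P7) and 92.7 and 36.7 CPM in cHCs. The 14 spiral ganglion neuron markers outside the set summed to 398 and 535 CPM in IHCs and to at most 216 CPM elsewhere. Of the full list of 16, only 4 had at least 10 CPM in both IHC libraries, among them *Nefl* and the members *Nefh* and *Ntrk2*. Few of the 14 were thus at that level. However, only 1 of the 16 was under 1 CPM in both IHC libraries. In both libraries of the other cell types, 15 were under 1 CPM in SCs, 11 in cHCs, 10 in OHCs (P7) and 9 in OHCs (P22). *Prph* was at 0 in all 10 libraries and *Tubb3* at 1.36 and 0.377 CPM in IHCs. In libraries of pooled cells, fewer cells of a type and less RNA per cell cannot be told apart, and the part of these cells in the 58 genes was not tested.

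**Figure D3:**
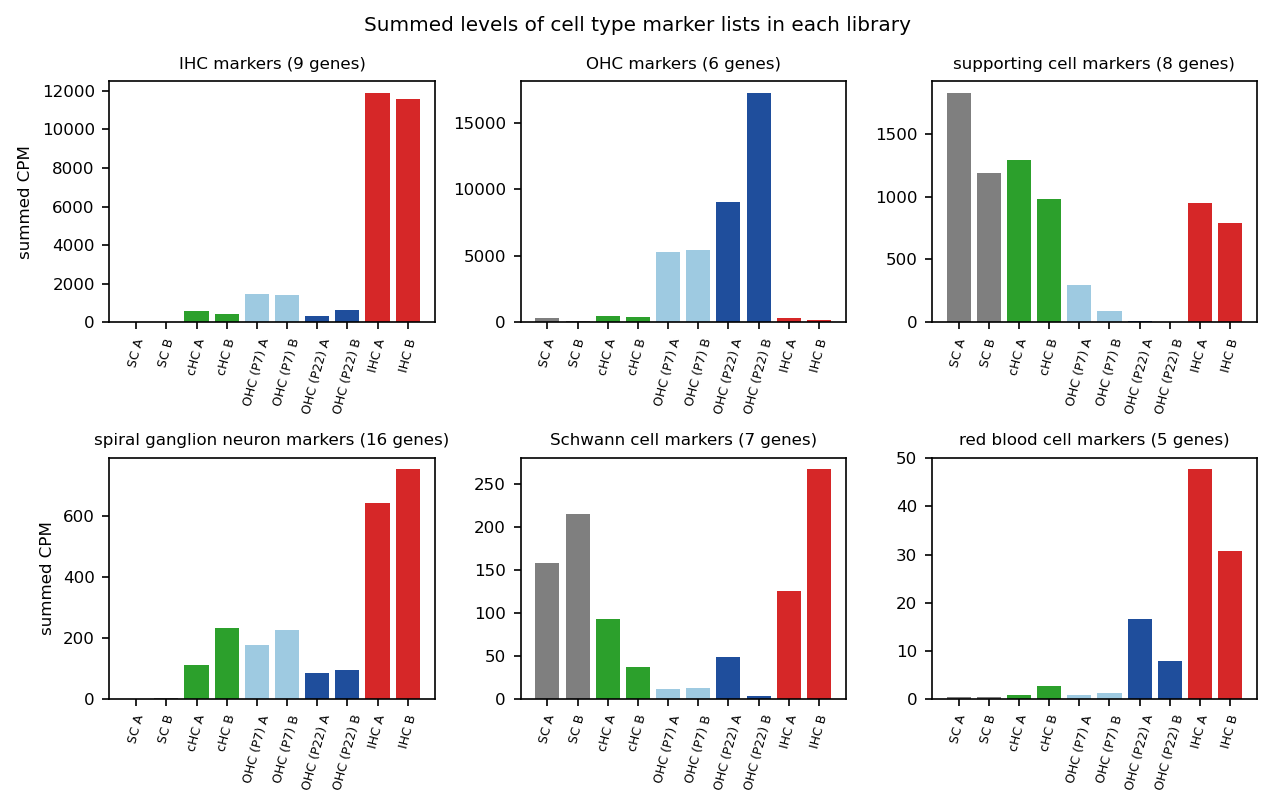
Summed CPM of 6 marker lists (y axis, each panel with its own scale from 0) in each library (x axis, coloured by cell type). The lists of IHC, neuron and red blood cell markers include 5, 2 and 2 of the 58 genes. Supporting cell markers were higher in IHCs, at 951 and 791 CPM, than in OHCs (P22), at 9.55 and 5.43 CPM, and *Gjb2* made up most of the IHC sums.

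The group of synaptic release, calcium handling and transport held 9 genes, with a median IHC level of 652 CPM. *Slc17a8*, on chromosome 10 from 89036765 to 89083998 (mm9, minus strand, 13 exons), was at 2073 and 1934 CPM in IHCs. In the other cell types it was at 0.0247 and 0.0443 CPM in SCs, 2.24 and 0 CPM in cHCs, 25.8 and 74.9 CPM in OHCs (P7) and 30.6 and 39.3 CPM in OHCs (P22). Hair cells of both OHC ages were thus above SCs and cHCs in every library, and the lower IHC library was 25.8 times the highest of them.

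*Atp2a3*, which encodes the calcium pump SERCA3 of the endoplasmic reticulum, was at 1402 and 1699 CPM in IHCs. It was at 26.5 and 60.4 CPM in OHCs (P7), at 1.03 and 5.52 CPM in OHCs (P22), at 1.33 and 0.0603 CPM in cHCs and at 0.0247 and 0.0885 CPM in SCs. *Calb2* was at 1136 and 1504 CPM in IHCs. In cHCs it was at 169 and 138 CPM and in OHCs (P7) at 157 and 141 CPM, which overlapped. In OHCs (P22) it was at 25.4 and 49.1 CPM and in SCs at 0.444 and 0.62 CPM. Per kilobase of exon, *Calb2* had the highest mean level of the 58 genes, at 758 CPM per kb, followed by *Slc17a8* (425), *Kifap3* (334) and *Atp2a3* (294).

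*Slc7a14*, encoding a lysosomal member of the cationic amino acid transporter family, was at 1215 and 1369.5 CPM in IHCs. It was at 111 and 99.6 CPM in OHCs (P7), at 82.5 and 34.7 CPM in cHCs, at 3.8 and 5.34 CPM in OHCs (P22) and at 2.44 and 4.43 CPM in SCs. *Dnm1*, encoding the neuronal dynamin of vesicle endocytosis, was at 674 and 629 CPM in IHCs and up to 121 CPM in OHCs (P7). *Bin1*, encoding a membrane-curving partner of dynamin, was at 247 and 209 CPM in IHCs and at most 28.0 CPM elsewhere. *Cabp1*, encoding a calcium-binding protein that modulates calcium channels, was at 41.3 and 47.9 CPM in IHCs and at most 3.09 CPM elsewhere.

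Of the 19 genes in a list of ribbon synapse and glutamate release, *Slc17a8* and *Cabp1* met the rule, and 18 had at least 10 CPM in both IHC libraries. The share that met the rule over all genes at that level was 0.87%. *Cacna1d*, encoding the pore of the main IHC calcium channel, was at 406 and 298 CPM in IHCs and at 1948 and 1403 CPM in OHCs (P22). *Ctbp2*, whose product builds the ribbon, was at 42.2 and 113 CPM in IHCs and within 37.3 to 97.8 CPM in the other hair cell libraries. None of the 30 genes for SNAREs, synaptotagmins and complexins met the rule, of which 13 had at least 10 CPM in both IHC libraries. Of the 20 calcium buffers and pumps, *Calb2* and *Atp2a3* met it, and 13 were at that level.

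Signalling ligands and receptors made up 8 of the genes. *Gdnf*, a neurotrophic ligand, was at 54.8 and 100.4 CPM in IHCs and at most 4.79 CPM elsewhere. *Fgf10*, a ligand of the fibroblast growth factor family, was at 64.3 and 49.1 CPM and at most 1.23 CPM elsewhere. *Ednrb*, encoding endothelin receptor B, was at 76.9 and 27.3 CPM in IHCs and was read with 2 counts in 1 SC library and 1 count in 1 OHC (P22) library, with 0 in the other 6. *Alk*, encoding a receptor tyrosine kinase of the nervous system, was at 14.1 and 14.2 CPM in IHCs with no read in the 8 other libraries, so that its IHC level was at least 70.8-fold higher than the level of 3 counts in the shallowest of them. *Epha7*, encoding an ephrin receptor, was at 181 and 124 CPM in IHCs and at 14.5 CPM in 1 OHC (P22) library against 0.513 CPM in the other.

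*Ntrk2*, encoding the neurotrophin receptor TrkB, was at 158 and 139 CPM in IHCs and at 9.99 CPM in 1 OHC (P7) library, with at most 1.33 CPM in the other 7. It is also a marker of spiral ganglion neurons, as is *Nefh*, encoding a neurofilament, which was at 87.7 and 80.0 CPM in IHCs and at 15.4 CPM in cHC library B. The other 14 genes of the neuron list, without these members, are those that summed to 398 and 535 CPM in IHCs. *Relt*, encoding a tumour necrosis factor receptor family member, was at 107 and 128 CPM in IHCs and at most 12.4 CPM elsewhere. *Cd96*, encoding a receptor of T and natural killer cells, was at 25.6 and 13.1 CPM in IHCs, where the 10 macrophage and leukocyte markers summed to 2.56 and 22.2 CPM.

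Kinases, phosphatase subunits and GTPase regulators made up 7 genes. *Rps6ka2*, encoding a ribosomal S6 kinase, was at 629 and 560.2 CPM in IHCs and at most 5.07 CPM elsewhere, a ratio of 111. *Dlc1*, encoding a GTPase-activating protein, was at 189 and 129 CPM in IHCs and at most 0.932 CPM elsewhere, a ratio of 139. *Rerg*, encoding a small Ras-like GTPase, was at 53.7 and 11.1 CPM in IHCs, a log2 difference of -2.27 of library B from library A, and was read with at most 1 count in any other library. *Map4k4*, a kinase upstream of JNK signalling, was at 884 and 993 CPM in IHCs, but also at 9.5 to 130 CPM in all others. Its place in the set rests on the size of its IHC level.

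*Fam65c*, a gene of little described function, had the largest ratio among the 15 genes with the highest mean IHC level. It was at 544 and 446 CPM in IHCs and at most 1.59 CPM elsewhere, a ratio of 280.0. *Ralyl*, encoding an RNA-binding protein of the Raly family, was at 47.9 and 85.8 CPM in IHCs, at 0.411 and 0.328 CPM in OHCs (P22) and at 0 in the other 6. *Slitrk3*, encoding a synaptic adhesion protein, was at 37.4 and 112 CPM in IHCs and at most 0.616 CPM elsewhere. The 2 IHC libraries differed over 2-fold for 8 of the 58 genes, and the median absolute log2 difference between them was 0.31 for the 58 genes and 0.60 for all genes with at least 10 CPM in both. The rule used the lower of the 2 IHC values, so genes that differed between these libraries were less likely to enter the set. The smaller difference is therefore no measure of how well the set was reproduced.

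Among the cytoskeletal genes, *Kifap3*, the accessory subunit of kinesin-2, was at 1196 and 1484 CPM in IHCs and at 32.7 to 110.2 CPM in all other libraries. *Syne1*, encoding the nuclear envelope protein nesprin-1, was at 446 and 465 CPM in IHCs and at 16.3 CPM in cHC library B. *Myo1c*, a myosin of hair cell adaptation, was the only member among 27 genes of mechanotransduction and the hair bundle, at 31.2 and 29.4 CPM in IHCs. Of the enzymes and lipid carriers, *Osbpl6*, encoding an oxysterol-binding protein, was at 1847 and 1238 CPM in IHCs and varied between 10.1 and 181 CPM elsewhere. *March4*, encoding a membrane-bound ubiquitin ligase, was at 739 and 413 CPM and *Anpep*, encoding aminopeptidase N, at 343 and 279 CPM in IHCs. *Fat4*, the large atypical cadherin of planar polarity, was at 402 and 437 CPM in IHCs and reached 31.2 CPM in 1 OHC (P7) library.

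The other 16 genes had mean IHC levels of 12.8 to 207 CPM and ratios of 5.38 to 39.6. *Prkd1*, encoding protein kinase D1, was at 169 and 157 CPM in IHCs and at 14.9 CPM in SC library A, and *Ppp2r2b*, encoding a regulatory subunit of protein phosphatase 2A, was at 212 and 202 CPM in IHCs and at 23.1 and 37.6 CPM in cHCs. *Mtap1a*, encoding a microtubule-associated protein, was at 81.7 and 125 CPM in IHCs, and *Mrc2*, encoding a collagen receptor, at 126 and 73.0 CPM. *Myl4*, a myosin light chain gene, was at 35.2 and 80.6 CPM in IHCs and at most 1.2 CPM elsewhere. *Grin1*, encoding the obligatory subunit of NMDA receptors, was at 18.6 and 17.5 CPM in IHCs and at 2.77 CPM in cHC library B. The remaining genes were *Fmo1*, *Nat14*, *Olfml2a*, *Syde1*, *Fam169a*, *Rarres1*, *Bcas1*, *Tcte1*, *Gng3* and *Gm15638*, with mean IHC levels of 12.8 to 69.9 CPM. *Gm15638*, on the plus strand, overlapped the span of *Plcxd2* on the minus strand, which was at 130.5 and 129.7 CPM in IHCs.

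*Tbx2* was the only member among 23 cochlear transcription factors listed and the only T-box gene of 13 with at least 10 CPM in both IHC libraries. It lay on chromosome 11 from 85646053 to 85655450 (mm9, plus strand, 7 exons) and was at 296 and 218 CPM in IHCs. It was at 13.7 and 4.26 CPM in OHCs (P7), at 2.0 and 0.702 CPM in OHCs (P22), at 0.051 and 0.332 CPM in cHCs and at 0 in both SC libraries. The order of the levels was thus IHCs, OHCs (P7), OHCs (P22), cHCs and SCs with no overlap between libraries. *Nr4a2*, encoding the orphan nuclear receptor Nurr1, was at 19.3 and 15.3 CPM in IHCs and at 1.66 CPM in cHC library B.

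The gene *8430403D17Rik*, a processed transcript at 92.6 and 74.3 CPM in IHCs, lay 113 kb from *Tbx2* on the opposite strand, inside the span of *Bcas3*. Between them, the lincRNA gene *2610027K06Rik* on the minus strand ended 327 bases before the start of *Tbx2* and was at 20.8 and 10.6 CPM in IHCs and at most 3.79 CPM elsewhere, which missed the rule. *Bcas3* itself was at 23.2 and 44.5 CPM in IHCs and at 14.3 to 67.1 CPM in the others, which overlapped. These neighbours were named after their values were seen. Reads that HTSeq found ambiguous, 0.606% to 2.27% of a library, were left out, so overlaps can cost a gene counts. Counting was not stated to use strand, so that reads from overlapping genes of opposite strands cannot be told apart. This bears on 11 of the 58 genes, whose exons overlap only genes of the other strand: *Fam65c*, *Fat4*, *Mtap1a*, *Fgf10*, *Ppp2r2b*, *Fam169a*, *Myl4*, *Bcas1*, *Grin1*, *Gng3* and *Tcte1*. It also bears on *Meg3*, whose exons overlap *Gm17639* on the opposite strand as well as microRNA genes on its own.

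Other members lay near each other as well. *Ano4*, encoding a member of the anoctamin family, lay 316 kb from *Slc17a8*, with 3 annotated genes between them, none at 10 CPM in both IHC libraries. *Meg3* and *Rian*, maternally expressed lincRNA genes of the imprinted Dlk1-Dio3 region on chromosome 12, lay 32.2 kb apart. *Meg3* was at 341 and 162 CPM in IHCs, at 7.96 and 7.77 CPM in OHCs (P22) and at most 0.929 CPM in the other 6 libraries. *Rian* was at 45.2 and 32.7 CPM in IHCs, at 1.59 and 2.11 CPM in OHCs (P22) and at most 0.102 CPM in the others. *Mirg*, a further maternally expressed transcript of the region, was at 6.45 and 3.88 CPM in IHCs. The paternally expressed genes *Dlk1* and *Dio3* were at 0 to 0.0754 CPM there. *Rtl1*, another paternally expressed gene, was at 0.549 and 0.528 CPM.

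*Hba-a1* and *Hba-a2*, the near-identical alpha globin genes, whose reads cannot be assigned between them with certainty, were at 17.3 and 14.1 CPM and at 14.9 and 16.7 CPM in IHCs. The beta globin gene *Hbb-b1* was at 9.3 CPM in IHC library A and at 0 in library B. The 3 red blood cell markers outside the set summed to 15.4 and 0.0377 CPM in IHCs and to 16.6 and 6.41 CPM in OHCs (P22), which overlapped.

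A group of 10 genes had both OHC (P22) libraries above the other 6 libraries that were not from IHCs: *Meg3*, *Relt*, *Mtap1a*, *Ralyl*, *Fgf10*, *Iqsec3*, *Rian*, *Bcas1*, *Kcna1* and *Gng3*. This was 17.2% of the 58 genes, against a background of 9.18% of the genes with at least 10 CPM in both IHC libraries. The OHC (P22) levels of the 10 genes lay between 0.328 and 12.4 CPM. *Kcna1*, encoding a potassium channel, was at 33.2 and 20.6 CPM in IHCs and at 2.57 and 2.71 CPM in OHCs (P22). *Iqsec3*, encoding an exchange factor of inhibitory synapses, was at 22.3 and 66.2 CPM in IHCs and at 1.64 and 1.59 CPM in OHCs (P22). The IHC and OHC (P22) libraries share a number series and are also the older native hair cells, and the part of either in these levels cannot be told apart.

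Whether the 58 genes differed among the other 4 cell types was tested. The rule did not use the differences between these cell types. It did cap the highest of their levels, so the choice of genes limited how large such a difference could be. The tests were edgeR quasi-likelihood F-tests on counts in 1 fit of all 10 libraries, with p values adjusted by Benjamini and Hochberg's method over 16891 genes. All 58 genes passed the filter on low counts, many of them through their IHC levels alone. When only the cell types compared were fitted, 29 passed it for cHCs against SCs, 31 for OHCs (P7) against SCs, 34 for OHCs (P22) against OHCs (P7) and 46 for the joint test. The counts of genes called are therefore descriptions of these genes and say nothing of the set against other genes. Log2 fold changes are given with their standard error (SE), and those of genes with few reads in a group as ratios.

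In cHCs against SCs, 5 of the 58 genes were higher and 0 lower at an adjusted p under 0.05, against a background of 1.75% higher, 0.0888% lower and 1.84% in either direction among all genes tested. At an unadjusted p under 0.05, 16 were higher and 1 lower, DESeq2 called 13 higher and 1 lower, and limma-voom 3 and 0. The background shares are for the edgeR adjusted p only, and none is given for these other counts. With only the cell types compared, *Calb2* alone was called among 29 genes tested (7 at an unadjusted p under 0.05). *Calb2* rose by a log2 fold change of 7.87 (SE 0.58, edgeR adjusted p = 5.6e-05), from 0.444 and 0.62 CPM in SCs to 169 and 138 CPM in cHCs. *Slc7a14* rose by 3.80 (SE 0.59, edgeR adjusted p = 0.00626), and this call was lost with limma-voom (adjusted p = 0.0916) and with only the cell types compared (0.183), within a range of 1.3e-06 to 1.0 over all alternatives.

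*Syne1* was at 16.3 CPM in cHC library B, at 1.02 CPM in cHC library A and at 0 and 0.0885 CPM in SCs. Its pooled ratio was 336, with a 95% counting interval of 92.6 to 2781 (edgeR adjusted p = 0.0333). *Ano4* was at 0.968 and 28.5 CPM in cHCs and at 0 in both SC libraries, at least 111-fold higher than the level of 3 counts in the shallower SC library by the mean of both cHC libraries and at least 7.29-fold by the lower of them (edgeR adjusted p = 0.0483). *Frmpd1*, encoding a FERM and PDZ domain scaffold, was at 7.08 and 16.9 CPM in cHCs and also at 0 in SCs, at least 90.2-fold higher by the mean and 53.4-fold by the lower library (edgeR adjusted p = 0.0443). For *Syne1* and *Ano4* cHC library B carried most of the reads. Without it the adjusted p was 0.131 and 0.0786, and without SC library A it was 0.12 for *Syne1*, 0.13 for *Ano4* and 0.136 for *Frmpd1*, while without SC library B it was 0.109 for *Ano4* and 0.111 for *Frmpd1*. Over all alternatives the adjusted p ranged from 1.7e-08 to 0.928 for *Syne1*, from 2.0e-08 to 0.928 for *Ano4* and from 2.6e-08 to 0.997 for *Frmpd1*.

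In OHCs (P7) against SCs, 7 of the 58 genes were higher and 1 was lower, against a background of 2.56% higher, 0.853% lower and 3.41% in either direction. *Calb2* (log2 fold change 8.10, SE 0.59, edgeR adjusted p = 2.3e-05), *Slc7a14* (4.92, SE 0.62, adjusted p = 0.00128) and *Dnm1* (3.93, SE 0.57, adjusted p = 0.00322) were read in both cell types. *Slc17a8* had a pooled ratio of 1259 with a counting interval of 348 to 10400 (edgeR adjusted p = 0.0109), and *Atp2a3* one of 762 with an interval of 260 to 3700 (adjusted p = 0.00376). *Tbx2* was at least 67.6-fold higher by the mean and 32.1-fold by the lower OHC (P7) library (edgeR adjusted p = 0.0109), and *Frmpd1* at least 101-fold and 49.2-fold higher (adjusted p = 0.0258), both being at 0 in SCs. All but *Dnm1*, *Frmpd1* and *Tbx2* of these 7 were also called when only the cell types compared were fitted, with adjusted p of 0.0561, 0.0993 and 0.114 for the exceptions. The call of *Frmpd1* was lost without SC library A (0.0761) or B (0.0641). Over all alternatives the adjusted p of these 3 genes ranged from 4.8e-09 to 0.889, from 7.0e-09 to 0.957 and from 1.9e-08 to 0.823.

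*Pter*, encoding a phosphotriesterase-related enzyme, went the other way, at 11.7 and 1.15 CPM in SCs and at 0 in both OHC (P7) libraries (at least 32.2-fold lower by the mean of SCs and 5.76-fold by the lower SC library, edgeR adjusted p = 0.0387). The call was lost without SC library A (0.0814), without OHC (P7) library A (0.157) or B (0.125), without IHC library A (0.0572) and with only the cell types compared (0.125), within a range of 1.3e-05 to 1.0 over all alternatives.

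In OHCs (P22) against OHCs (P7), *Slc7a14* was lower and no gene of the 58 was higher, against a background of 0.42% lower, 0.13% higher and 0.551% in either direction. *Slc7a14* was lower by 4.24 on the log2 scale (SE 0.60, edgeR adjusted p = 0.0188), at 3.8 and 5.34 CPM against 111 and 99.6 CPM. This was lost without OHC (P22) library A (adjusted p = 0.0742), with limma-voom (0.123) and with only the cell types compared (0.131), within a range of 2.4e-07 to 0.526 over all alternatives. At an unadjusted p under 0.05, 9 genes were higher and 8 lower, and DESeq2 called 9 higher and 7 lower, with no share over all genes given for either. *Calb2*, with 157 and 141 CPM at P7 and 25.4 and 49.1 CPM at P22, had a log2 fold change of -1.78 (SE 0.44, edgeR adjusted p = 0.11), and *Atp2a3* one of -3.69 (SE 1.03, adjusted p = 0.162). *Slc17a8* had one of -0.21 (SE 1.14, adjusted p = 0.974). The OHC groups differ in age, in the number series of their libraries and, by the study's summary, in mouse line and tamoxifen. The parts of these in the differences cannot be told apart.

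A joint test over SCs, cHCs, OHCs (P7) and OHCs (P22) called 10 of the 58 genes, against a background of 7.63%. Besides *Slc17a8*, *Atp2a3*, *Slc7a14*, *Calb2*, *Tbx2*, *Dnm1*, *Ano4* and *Syne1*, these were *March4* (edgeR adjusted p = 0.0233) and *Fam65c* (adjusted p = 0.0346). *March4* was at 36.3 CPM in cHC library B and at most 0.565 CPM in the other 7 libraries, and its adjusted p without that library was 0.0964. With only the 4 cell types fitted, the adjusted p was 0.153 for *March4* and 0.225 for *Fam65c*, and *Calb2* and *Slc7a14* alone were called among 46 genes tested. *Fam65c* was at 0.204 and 1.57 CPM in cHCs, at 0.154 and 1.59 CPM in OHCs (P22) and at 0 in the other 4. The remaining 48 genes were not called, and a p above the threshold does not show that they were equal among these cell types.

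**Figure D4:**
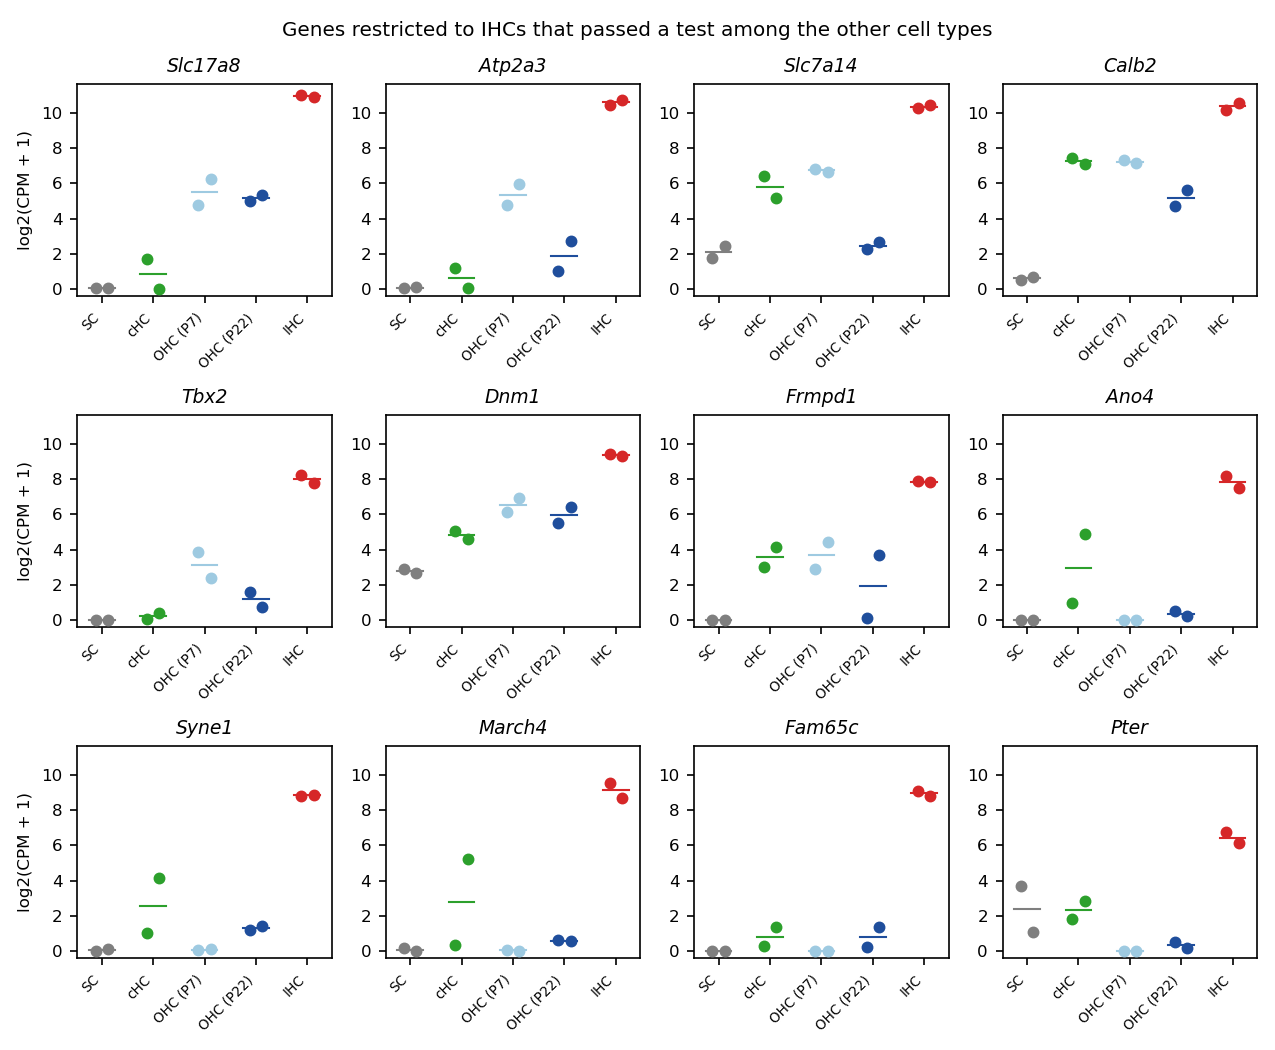
Level of the 12 genes called in at least 1 of the 4 tests, as log2(CPM + 1) (y axis), by cell type (x axis). Points are libraries and lines the mean of 2 libraries, and in each panel both IHC points lie above all others.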

How the data were processed

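The authors mapped 100-bp paired-end reads to the mouse genome (mm9) with STAR and BWA after base calling with CASAVA 1.7, and counted reads per gene with HTSeq. The deposited files hold these raw counts by gene symbol, without normalization. The HTSeq rows that name no gene held 44.2% to 72.1% of the reads of a library and were left out of all totals. CPM were counts divided by the sum of all gene rows. The file of each library was settled by comparing every file with the columns of the study's supplementary table of CPM by library, over genes with at least 10 counts, where the matching file gave a constant ratio (coefficient of variation at most 0.000138%, next best at least 170%).

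Members, lists and tests were chosen with earlier results of these data known. The genes named were the 15 with the highest IHC level and the 10 with the highest level per length, the 10 with the largest ratio, the 5 on each side of the limit, those called in a test, those in the lists and the other IHC markers. Genes added after their values were seen are the other members and the neighbours named with *Tbx2*, *Meg3* and *Slc17a8*. Roles were assigned from general knowledge after the members were known.

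Counts were tested with edgeR 4.0.16 in R 4.3.3 (TMM, filterByExpr, quasi-likelihood F-tests in 1 fit of 10 libraries, 16891 genes, adjusted p under 0.05), checked on simulated data. The SE was the size of the log2 fold change divided by the square root of F. DESeq2 1.42.0 and limma-voom (limma 3.58.1), the study's method, were alternatives. Ratios with 0 reads in a group use the level of 3 counts in its shallower library, and intervals cover counting error only, at 95%. Positions and exon lengths are from GENCODE vM1 (mm9), where 33260 of 34590 symbols matched.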

Additional observations from a re-analysis of the deposited data

How the results depend on the processing

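The number of genes restricted to IHCs was 89 with a fold of 3 and 35 with a fold of 10. It was between 61 and 171 when each library was left out in turn, the 2 largest values being 171 without IHC library A and 155 without IHC library B. It was 72 and 46 with a minimum of 5 and 20 CPM, 53 with TMM-scaled CPM (51 of them shared) and 79 without the OHC (P22) libraries in the rule. With the files as attached to the records it was 58, which the rule fixes in advance. The number called in cHCs against SCs, 5 in the report, was 14 with DESeq2, 3 with limma-voom, 13 without a filter, 1 with only the cell types compared and 3 to 9 with each library left out. In OHCs (P7) against SCs, 8 in the report, it was 14 with DESeq2, 4 with only the cell types compared and 7 to 10 with each library left out. In OHCs (P22) against OHCs (P7), 1 in the report, it was 16 with DESeq2, 9 without a filter, 0 with limma-voom (15 at an unadjusted p under 0.05), 0 with only the cell types compared (9 unadjusted) and 0 to 5 with each library left out, where 0 came without OHC (P22) library A (14 unadjusted) and 5 without either cHC library. In the joint test, 10 in the report, it was 27 with DESeq2, 6 with limma-voom, 30 without a filter, 2 with only the cell types compared and 11 to 17 with each library left out. With the files as attached to the records, which mixes cell types, 0 genes were called in each of the 4 tests (6, 11, 10 and 16 at an unadjusted p under 0.05), and the log2 fold changes of *Ano4* (-6.46), *Syne1* (-4.11) and *Pter* (0.63) changed sign. With only the cell types compared, fewer genes and libraries were fitted. The cause of the other differences was not tested. No share over all genes is given for the counts under these alternatives, so they cannot be set against the background shares of the main tests. Upper-quartile normalization changed no count, and it moved the median log2 fold change of all genes by 0.119 in cHCs against SCs. Of the genes named with a call, 320 gene and setting pairs kept call and direction, 61 kept direction and lost the call and 3 changed direction. No paired analysis was made, because the labels name no animal shared between libraries of different cell types.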
